A study of Mus musculus with 6 samples.

Results

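Colony-stimulating factors are the growth factors of myeloid cells, and their receptors fall into different families. Csf1r, the receptor for M-CSF, is a receptor tyrosine kinase on which macrophages and osteoclast precursors depend for survival, and M-CSF is encoded by Csf1. The receptors for GM-CSF and interleukin-3 pair an alpha chain specific to the cytokine (Csf2ra or Il3ra) with a shared signalling beta chain (Csf2rb), mice carry an extra beta chain devoted to interleukin-3 (Csf2rb2), and the G-CSF receptor (Csf3r) acts as a pair of identical chains. In marrow cultures, M-CSF together with RANKL drives osteoclast formation, while GM-CSF and interleukin-3 are known to divert precursors from it.

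These 7 genes were taken by symbol from a table of 26106 genes, and all 7 were found and passed the filter on low counts. The data were mRNA libraries of macrophages grown from the marrow of wild-type male C57BL/6 mice, 6 weeks old. ZM cells (n = 3) were given 10 uM ZM, which the series title names as ZM-306416, known as an inhibitor of the kinase activity of VEGF receptors, and Ctrl cells (n = 3) were not. Both groups were kept for 2 days in alpha-MEM with 10% serum, M-CSF at 30 ng/mL and RANKL at 100 ng/mL, so every culture carried added M-CSF, and all libraries had the same batch label. The labels name no vehicle in Ctrl cells and leave unsaid whether each library had its own mouse or culture, and p-values therefore measure only the spread between these libraries.

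Total counts were 51329237 to 54256377 in ZM and 45512004 to 49613493 in Ctrl libraries. ZM replicate 3 stood apart, at 87.8 on the leading principal component against 4.29 and 28.3 in the other ZM libraries and -43.6 to -37.4 in Ctrl libraries. The culture expressed macrophage markers in both groups, with Lyz2 (lysozyme) at 22443 ± 9583 CPM in ZM and 7779 ± 656 CPM in Ctrl cells, where CPM is the usual library-size-scaled count, here with TMM factors. Of 8 macrophage markers 6 rose and 0 fell, and of 8 osteoclast markers 0 rose and 8 fell. Among all 15590 genes tested, 5.54% rose and 5.44% fell. The osteoclast marker Mmp9 was at 262 ± 127 CPM in ZM and 2078 ± 38.1 CPM in Ctrl cells. Markers of lymphocytes, Cd79a the most abundant, summed to 0.0424 to 0.185 CPM in ZM and 0.0398 to 0.118 CPM in Ctrl libraries, and those of mast cells and basophils, led by Hdc, to 0.0382 to 0.167 CPM in ZM and 0.318 to 0.373 CPM in Ctrl libraries. In these bulk libraries, fewer cells of a type and less RNA per cell cannot be told apart.

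The receptor genes moved in opposite directions. With ZM the G-CSF receptor rose 4.42-fold and the alpha chain of the GM-CSF receptor 1.48-fold, while the beta chains fell (1.30-fold less Csf2rb, 1.51-fold less Csf2rb2), as did the ligand gene Csf1 (1.42-fold less). Of the 7 genes, 2 rose (background 5.54% of 15590 genes tested), 3 fell (background 5.44%) and 2 were not called, by edgeR's quasi-likelihood test with a Benjamini-Hochberg adjusted p under 0.05. The background for either direction was 11.0%. For all 7 genes the ZM and Ctrl libraries did not overlap, 4 higher and 3 lower with ZM, as did 42.9% of all genes tested. How many members were called moved with the calls over all genes. With a Ctrl library left out, 0 of the 7 members were called, where the background was 1.12%, 1.40% and 0.921% without Ctrl replicates 1, 2 and 3. Their log2 folds stayed close to those of all libraries, at 2.11 to 2.16 for Csf3r and -0.61 to -0.59 for Csf2rb2. Without ZM replicate 1 the calls of Csf2rb2 and Csf3r remained, 2 of 7, against a background of 4.17%. All 7 were called without ZM replicate 2 (background 31.4%) and without ZM replicate 3 (background 19.5%). Apart from left-out libraries, the 5 calls held under every setting tried except the fit with the replicate number as a block, which lost Csf1 and Csf2rb and gained Il3ra (background 10.8%). With no filter on low counts 6 members were called (background 7.98%), and with DESeq2 7 (background 21.1%). The directions of all 7 were kept under each setting.

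**Figure D1:**
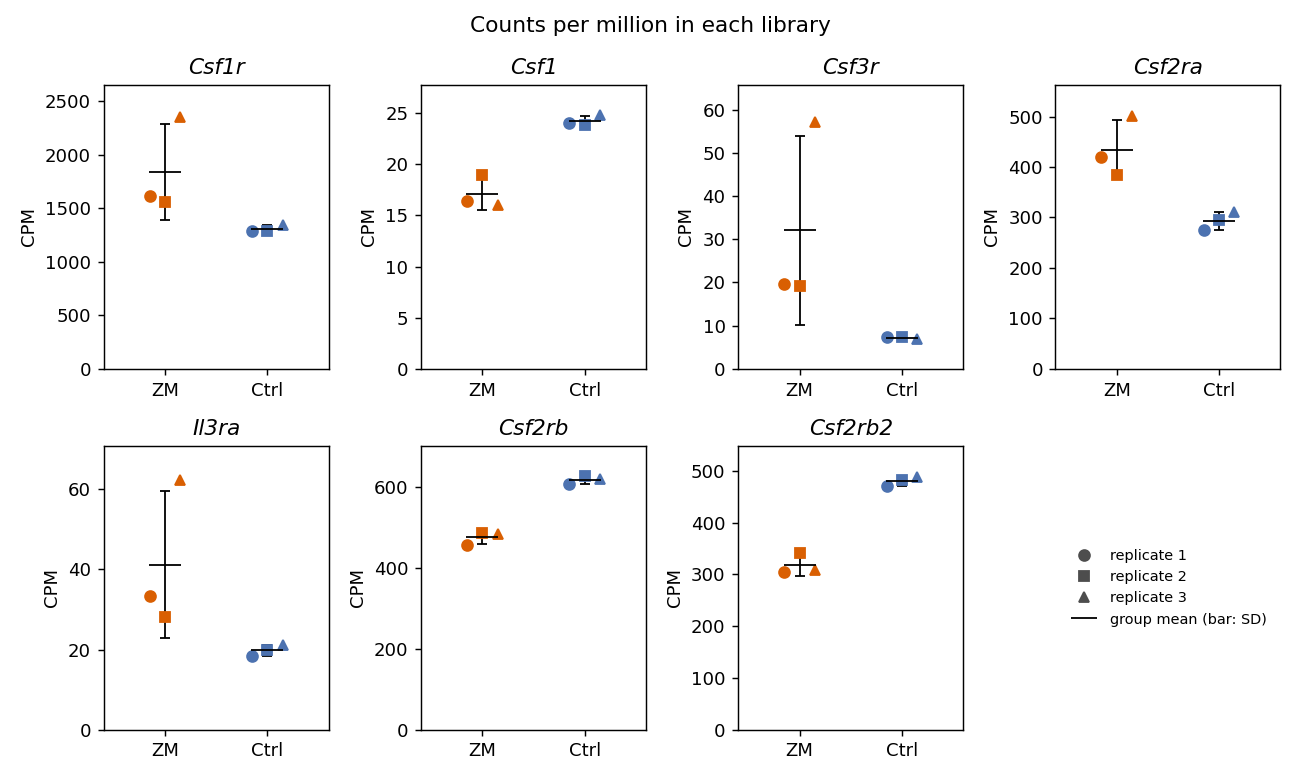
CPM (y axes, from 0) of each gene in the 3 ZM and 3 Ctrl libraries; symbols mark replicates, the horizontal line the group mean and the bar 1 SD. The ZM points of Csf1r, Csf3r, Csf2ra and Il3ra lie above the Ctrl points, with ZM replicate 3 highest, and those of Csf1, Csf2rb and Csf2rb2 lie below them.

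Csf1r (ENSMUSG00000024621) is a protein-coding gene on chromosome 18 of GRCm38, at 61100598 to 61132149 on the forward strand, as annotated in GENCODE M21 like the other positions here. It had 1611, 1554 and 2354 CPM in ZM replicates 1, 2 and 3, against 1285, 1289.8 and 1344 CPM in Ctrl replicates 1, 2 and 3. The groups did not overlap, but ZM replicate 3 lay well above the other ZM libraries. The log2 fold was 0.49 (SE 0.16), and the difference was not called by edgeR (adjusted p = 0.0920). Without ZM replicate 3 the log2 fold was 0.28 and the adjusted p 0.0133, without ZM replicate 2 they were 0.60 and 0.0286, and DESeq2 gave an adjusted p of 0.0462. Hmgxb3 lies on the other strand and shares 873 exonic bases with Csf1r, with 9475 counts over all libraries against 472571 for Csf1r.

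Csf1 (ENSMUSG00000014599, chromosome 3, 107741048 to 107760469, reverse strand) encodes M-CSF itself. It had 16.4, 18.9 and 16.0 CPM in ZM replicates 1, 2 and 3, against 24.0, 23.8 and 24.8 CPM in Ctrl replicates 1, 2 and 3. Every ZM library was below every Ctrl library. ZM cells had 1.42-fold less Csf1 (log2 fold -0.50, SE 0.11, adjusted p = 0.0299). Leaving out a Ctrl library gave adjusted p of 0.128 to 0.148, leaving out ZM replicate 1 gave 0.0828, and the replicate block gave 0.0532.

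Set within each library, the level of the receptor stood further above that of its ligand in ZM cells. The deposited FPKM of Csf1r, a level per kilobase of gene length, was 90.0, 75.1 and 135 times that of Csf1 in ZM replicates 1, 2 and 3, against 48.9, 49.5 and 49.6 times in Ctrl replicates 1, 2 and 3. The Ctrl libraries were almost equal in this ratio, and the ZM libraries were spread widely above them. On the log2 scale, Csf1 over Csf1r averaged -6.60 ± 0.43 in ZM and -5.63 ± 0.01 in Ctrl libraries (SD, n = 3 each), a difference of -0.97 with exact two-sided permutation p = 0.1, the smallest p that 3 against 3 libraries allow. Without single libraries the difference ranged from -1.16 to -0.74.

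Csf3r (ENSMUSG00000028859, chromosome 4, 126024550 to 126044440, forward strand), the G-CSF receptor known chiefly from neutrophils and their precursors, had the greatest fold among the 7 genes. It had 19.6, 19.3 and 57.2 CPM in ZM replicates 1, 2 and 3, against 7.37, 7.44 and 6.92 CPM in Ctrl replicates 1, 2 and 3. The lowest ZM library was above the highest Ctrl library, and ZM replicate 3 was far above the rest. Csf3r was 4.42-fold higher with ZM (log2 fold 2.14, SE 0.43, adjusted p = 0.0248), and 2.69-fold higher without ZM replicate 3 (log2 fold 1.43, adjusted p = 3.2e-05). With a Ctrl library left out, it had adjusted p of 0.111 to 0.121.

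Of the 4 neutrophil markers tested, 0 rose, 2 fell and 2 were not called (background 5.54% risen and 5.44% fallen). Of 12 listed, 9 had values, and 7 of these stayed under 1 CPM in every library. S100a8, a calcium-binding alarmin, was at 1.87 ± 0.0776 CPM in ZM and 1.87 ± 0.400 CPM in Ctrl cells (adjusted p = 0.983). Its partner S100a9 fell to 0.0328 ± 0.0122 CPM in ZM cells, against 0.415 ± 0.138 CPM in Ctrl cells (adjusted p = 0.0133), and Cxcr2, a chemokine receptor, also fell (adjusted p = 0.0482). The list summed to 24.7 to 41.7 CPM in ZM and 24.0 to 28.0 CPM in Ctrl libraries, most of it Mmp8, a collagenase, at 28.6 ± 9.59 CPM in ZM and 22.4 ± 1.64 CPM in Ctrl cells (adjusted p = 0.293). The 5 untested markers with values (Camp, Ltf, Ngp, Prtn3 and Retnlg) had 0 to 4 counts in ZM libraries and 0 to 6 in Ctrl libraries. Macrophage markers summed to 17268 to 36677 CPM in ZM and 8967 to 10326 CPM in Ctrl libraries, with the top value in ZM replicate 3, and their part in the rise of Csf3r was not tested.

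The alpha chain of the GM-CSF receptor, Csf2ra (ENSMUSG00000059326, chromosome 19, 61223957 to 61228429, reverse strand), rose. It had 419.5, 384 and 500.2 CPM in ZM replicates 1, 2 and 3, against 275, 295 and 310.2 CPM in Ctrl replicates 1, 2 and 3. Each ZM library was above each Ctrl library, with a wider spread in ZM. The level was 1.48-fold higher with ZM (log2 fold 0.57, SE 0.12, adjusted p = 0.0292). Without ZM replicate 3 the log2 fold was 0.46 and the adjusted p 0.0045, without ZM replicate 1 the adjusted p was 0.0769, and leaving out a Ctrl library gave 0.120 to 0.153.

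Il3ra (ENSMUSG00000068758, chromosome 14, 14346275 to 14356011, forward strand), the alpha chain for interleukin-3, was at 33.3, 28.0 and 62.2 CPM in ZM replicates 1, 2 and 3, against 18.3, 19.9 and 21.2 CPM in Ctrl replicates 1, 2 and 3. The groups did not overlap, and ZM replicate 3 was again the highest. The log2 fold of 1.06 (SE 0.28) was not called by edgeR (adjusted p = 0.0533). Without ZM replicate 3 it was 0.64 with an adjusted p of 0.00395, without ZM replicate 2 the adjusted p was 0.0133, and with DESeq2 it was 0.00341. It was 0.0265 with the replicate block and 0.0150 in edgeR with no filter on low counts. Exons of Il3ra share 46 bases with Gm48860 on the opposite strand, which had 12 counts in all.

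The beta chains, close copies whose reads could be placed on either gene, went the other way. Csf2rb (ENSMUSG00000071713, chromosome 15, 78325752 to 78353847, forward strand), shared by the receptors for GM-CSF, interleukin-3 and interleukin-5, had 456, 488 and 486 CPM in ZM replicates 1, 2 and 3, against 608, 629 and 622 CPM in Ctrl replicates 1, 2 and 3. All ZM libraries were below all Ctrl libraries, and ZM replicate 3 lay among the other ZM libraries. ZM cells had 1.30-fold less Csf2rb (log2 fold -0.38, SE 0.08, adjusted p = 0.0324). Leaving out a Ctrl library gave adjusted p of 0.154 to 0.160, leaving out ZM replicate 1 gave 0.0930, and the replicate block gave 0.0736.

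Csf2rb2 (ENSMUSG00000071714, chromosome 15, 78282507 to 78305721, reverse strand), the mouse beta chain of the interleukin-3 receptor, lies 20030 bases from Csf2rb and points away from it. It had 304, 341 and 308 CPM in ZM replicates 1, 2 and 3, against 471, 483 and 488 CPM in Ctrl replicates 1, 2 and 3. The groups were well separated, with no library standing out. ZM cells had 1.51-fold less Csf2rb2 (log2 fold -0.60, SE 0.09, adjusted p = 0.00989), and leaving out a Ctrl library gave adjusted p of 0.0703 to 0.0796.

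**Figure D2:**
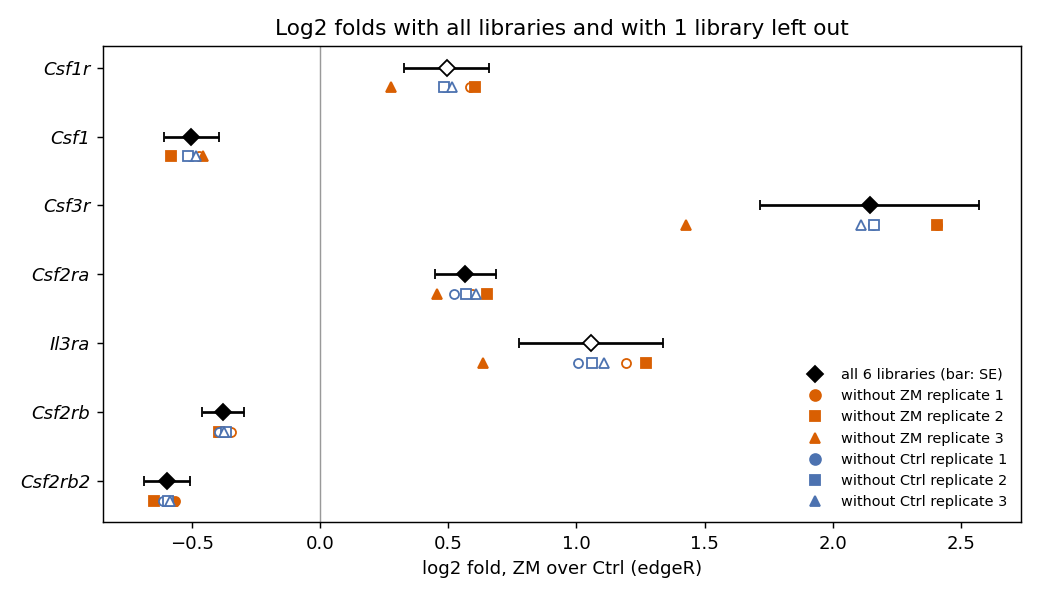
Log2 fold of ZM over Ctrl (x axis) for each gene; black diamonds with SE bars use all 6 libraries, and the smaller symbols beneath leave out 1 library each, with filled symbols where the adjusted p was under 0.05 and open ones elsewhere. Without ZM replicate 3 the fold of Csf3r moved to 1.43, that of Il3ra to 0.64 and that of Csf1r to 0.28, while that of Csf2rb was -0.39 and that of Csf2rb2 -0.57.

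The beta chain genes are close copies, so the counts of each are uncertain to the extent that reads could be placed on either. Over their longest annotated coding sequences in GENCODE M21, 2688 bases in Csf2rb and 2634 bases in Csf2rb2, 95.2% of 2628 aligned bases were identical. Each also shares 62 exonic bases with a miRNA gene, Mir7676-2 in Csf2rb and Mir7676-1 in Csf2rb2, which had 0 counts. The longest identical run was 242 bases, and 11% of all windows of 100 bases in the coding sequence of Csf2rb occurred unchanged in that of Csf2rb2. This share depended on the window, at 26% for 50 bases and 6.5% for 150 bases. Exonic bases outside the coding sequences were not compared. The most different stretch of 60 coding bases, at 304 to 363 in Csf2rb and 307 to 366 in Csf2rb2 counted from the start codon, shows what separates them, with the 13 differing bases in capitals.
Csf2rb: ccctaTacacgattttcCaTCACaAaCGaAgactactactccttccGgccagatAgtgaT
Csf2rb2: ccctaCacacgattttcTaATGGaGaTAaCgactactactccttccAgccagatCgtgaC

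With both genes summed to 1 feature the fall remained called (log2 fold -0.47, SE 0.08, adjusted p = 0.0186). The sum was 760.4, 829.5 and 794 CPM in ZM replicates 1, 2 and 3, against 1079, 1113 and 1110.0 CPM in Ctrl replicates 1, 2 and 3. Csf2rb2 made up 40.0%, 41.1% and 38.8% of the summed counts in ZM replicates 1, 2 and 3, against 43.7%, 43.4% and 43.9% in Ctrl replicates 1, 2 and 3. The share was thus lower in every ZM library, with a mean difference of -3.70 percentage points (exact two-sided permutation p = 0.1, the smallest possible here), and -4.28 to -3.12 points when 1 library was left out.

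The promoters of the risen Csf3r and Csf2ra and of the fallen Csf2rb2 are shown. They were chosen because PU.1 and the C/EBP proteins act on myeloid receptor genes, and the mRNA of these transcription factors was also measured. The proteins themselves were not measured. The sequences are from RefSeq on GRCm38.p6, run on the gene's strand from 250 bases before to 50 bases after its start, and carry matches to 2 motifs in capitals: GAGGAA, the core bound by PU.1, and TTNCNNAA, a C/EBP motif, each sought on both strands.
Csf3r: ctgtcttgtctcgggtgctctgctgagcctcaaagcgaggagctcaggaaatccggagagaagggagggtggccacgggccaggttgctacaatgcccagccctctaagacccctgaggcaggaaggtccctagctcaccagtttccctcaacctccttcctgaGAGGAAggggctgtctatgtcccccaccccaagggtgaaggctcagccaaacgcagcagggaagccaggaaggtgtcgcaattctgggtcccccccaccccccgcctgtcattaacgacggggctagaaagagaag
Csf2ra: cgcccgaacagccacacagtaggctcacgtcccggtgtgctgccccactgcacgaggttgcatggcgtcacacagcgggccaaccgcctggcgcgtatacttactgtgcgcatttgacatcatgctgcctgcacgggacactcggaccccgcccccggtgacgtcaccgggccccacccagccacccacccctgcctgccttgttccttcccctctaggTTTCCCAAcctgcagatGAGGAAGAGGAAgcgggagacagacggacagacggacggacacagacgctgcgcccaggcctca
Csf2rb2: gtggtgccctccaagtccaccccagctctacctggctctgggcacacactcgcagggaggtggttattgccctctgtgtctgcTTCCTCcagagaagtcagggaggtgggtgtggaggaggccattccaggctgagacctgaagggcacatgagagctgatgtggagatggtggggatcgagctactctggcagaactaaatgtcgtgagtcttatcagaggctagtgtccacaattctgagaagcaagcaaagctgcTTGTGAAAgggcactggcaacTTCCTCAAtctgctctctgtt

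The window of Csf3r lies at chr4:126024409-126024708 on the forward strand, that of Csf2ra at chr19:61228369-61228668 on the reverse strand and that of Csf2rb2 at chr15:78305672-78305971 on the reverse strand. GAGGAA stood 86 bases before the RefSeq start of Csf3r, and 14 and 8 bases before that of Csf2ra. In Csf2rb2 it stood both 167 bases before the start and 29 bases after it. The RefSeq starts of Csf3r and Csf2ra differ from the GENCODE starts given above. Counted from the GENCODE starts, the match in Csf3r and the match at 8 bases in Csf2ra lie after the start, inside the annotated gene. TTNCNNAA was found in Csf2ra and Csf2rb2, where 1 of its matches overlaps a GAGGAA match. Of the 5 members whose RefSeq window was searched, 3 held GAGGAA and 3 held TTNCNNAA, against 28.3% and 40.7% of 32817 promoters. Of the same 5, 0 held the AP-1 motif TGANTCA, against 7.81%. Csf1r was left out of this search, and Csf2rb had no window among the sequences used. Csf1, the other fallen member whose window was searched, held none of these motifs. Matches are of letters, not of measured binding.

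Per kilobase of gene length, the order of the 7 genes differed between the groups. In ZM cells Csf1r led at 309 ± 57.1 FPKM, followed by Csf2ra at 147 ± 11.9, Csf2rb2 at 65.7 ± 7.0, Csf2rb at 64.1 ± 3.82, Il3ra at 13.4 ± 5.18, Csf3r at 8.47 ± 5.28 and Csf1 at 3.17 ± 0.441 FPKM. In Ctrl cells Csf1r was at 231 ± 4.57 FPKM, followed by Csf2ra at 104 ± 5.82, Csf2rb2 at 104 ± 1.59, Csf2rb at 87.1 ± 1.58, Il3ra at 6.82 ± 0.463, Csf1 at 4.69 ± 0.0720 and Csf3r at 2.05 ± 0.0904 FPKM (SD, n = 3 each). Neighbours whose libraries overlapped were Csf2rb2 with Csf2rb and Il3ra with Csf3r in ZM cells, and Csf2ra with Csf2rb2 in Ctrl cells. Csf3r was thus above Csf1 in all ZM libraries and below it in all Ctrl libraries.

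The mRNA level of the GM-CSF receptor's alpha chain was higher relative to that of its beta chain in ZM cells. The FPKM ratio of Csf2ra to Csf2rb was 2.33, 1.99 and 2.61 in ZM replicates 1, 2 and 3, against 1.15, 1.19 and 1.26 in Ctrl replicates 1, 2 and 3. The lowest ZM ratio exceeded the highest Ctrl ratio. Over the summed FPKM of both beta chains it was 1.15, 0.962 and 1.32 in ZM replicates 1, 2 and 3, against 0.524, 0.545 and 0.573 in Ctrl replicates 1, 2 and 3. Whether the ratio exceeds 1 depends on the gene lengths used. In mean CPM, Csf2ra lay below Csf2rb in both groups, at 435 against 477 in ZM and 293 against 620 in Ctrl cells. These ratios were not tested, and the value of Csf2rb carries the uncertainty of the near-identical copy.

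**Figure D3:**
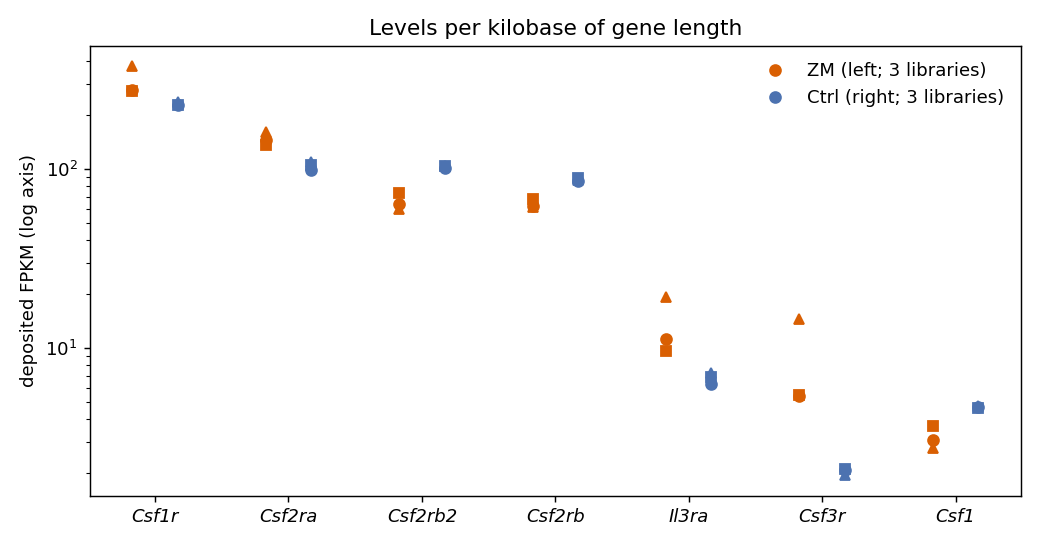
Deposited FPKM (y axis, logarithmic) of each gene in the 3 ZM libraries (left) and 3 Ctrl libraries (right), with symbols for replicates 1 (circle), 2 (square) and 3 (triangle), in the order of the ZM means. Csf1r is highest in both groups, and Csf3r lies above Csf1 in ZM cells and below it in Ctrl cells.

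**Figure D4:**
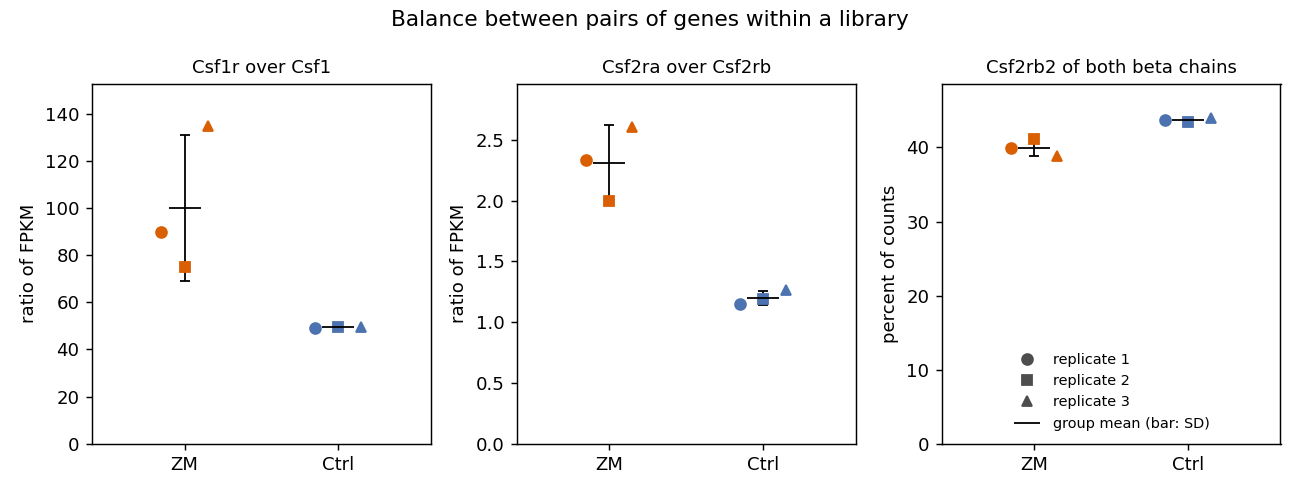
Ratio of the FPKM of Csf1r to Csf1, ratio of the FPKM of Csf2ra to Csf2rb, and percent of Csf2rb2 among the counts of both beta chains (y axes, from 0) in the ZM and Ctrl libraries, with group mean and SD. Both ratios are higher and the percent is lower in all 3 ZM libraries.

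Among the ligands of these receptors, Csf3, which encodes G-CSF, fell while its receptor rose. Csf3 had 4, 3 and 0 counts in ZM replicates 1, 2 and 3, against 68, 75 and 59 counts in Ctrl replicates 1, 2 and 3. This came to 0.0438 ± 0.0389 CPM in ZM and 1.37 ± 0.168 CPM in Ctrl cells (adjusted p = 0.00544). The call held without any single library, with adjusted p up to 0.0409. Il34, the other ligand of Csf1r, was at 0.0741 ± 0.128 CPM in ZM and 0.284 ± 0.189 CPM in Ctrl cells (adjusted p = 0.306). The genes for interleukin-5 (Il5) and its alpha chain (Il5ra) had at most 0.0424 and 0.0857 CPM in any library and were not tested, and Csf2 and Il3 are not analysed here.

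Genes that relay or follow these receptors' signals were taken from lists drawn up from knowledge of the pathways, with earlier results of these data known. Over all 15590 genes tested the median log2 fold was 0.0027, and 5.54% rose and 5.44% fell. Of 26 signalling proteins downstream of Csf1r, 7 rose, 2 fell and 17 were not called, with a median log2 fold of 0.10. Cblb, a ubiquitin ligase that damps receptor signalling, fell to 27.2 ± 3.21 CPM in ZM cells, against 56.9 ± 1.86 CPM in Ctrl cells (adjusted p = 0.00392), and was called without any single library. Among the Src family kinases, Src fell to 92.8 ± 21.7 CPM in ZM cells, against 223 ± 10.6 CPM in Ctrl cells (adjusted p = 0.00862). Fgr rose to 82.1 ± 5.55 CPM in ZM cells, against 44.4 ± 4.38 CPM in Ctrl cells (adjusted p = 0.00548).

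The beta common and G-CSF receptors signal through Jak kinases and Stat factors. Of 8 such genes, 0 were called in either direction by edgeR, with a median log2 fold of 0.16. Jak2, the kinase bound by the beta chain, was at 98.5 ± 11.0 CPM in ZM and 74.3 ± 2.71 CPM in Ctrl cells (adjusted p = 0.0507). Without ZM replicate 3 the count of risen genes among these 8 was 3. That refit called 19.5% of all genes tested, in either direction. Of 12 target genes of Stat factors, 3 rose, 1 fell and 8 were not called (median log2 fold 0.20, background 5.54% risen and 5.44% fallen). Bcl2l1, which encodes the survival protein Bcl-xL, rose to 59.0 ± 14.5 CPM in ZM cells, against 30.4 ± 0.295 CPM in Ctrl cells (adjusted p = 0.0173). Pim1, a survival kinase, and Id1, an inhibitor of DNA binding, rose as well (adjusted p = 0.0320 for Pim1 and 0.0128 for Id1). Socs2, a feedback inhibitor of cytokine receptors, fell to 0.944 ± 0.139 CPM in ZM cells, against 2.43 ± 0.322 CPM in Ctrl cells (adjusted p = 0.0139).

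Of 9 genes known to be induced by M-CSF, 3 rose, 0 fell and 6 were not called (median log2 fold 0.12, background 5.54% risen and 5.44% fallen). Dusp6, a phosphatase that acts on Erk, was at 57.3 ± 9.29 CPM in ZM and 26.2 ± 2.07 CPM in Ctrl cells (adjusted p = 0.00548). Egr2, an early response transcription factor, was at 30.3 ± 3.64 CPM in ZM and 20.1 ± 1.22 CPM in Ctrl cells (adjusted p = 0.0258), and Ier3 also rose (adjusted p = 0.0484).

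Of 15 transcription factors tied to the Csf1r gene, 8 rose, 0 fell and 7 were not called (background 5.54% risen and 5.44% fallen). Their median log2 fold was 0.62. Ets2, Egr2, Cebpa, Cebpb, Irf8, Maf and Tfe3 were among the risen ones. Cebpa was at 66.9 ± 30.5 CPM in ZM and 26.2 ± 1.03 CPM in Ctrl cells (adjusted p = 0.0292). Spi1, which encodes PU.1, was at 641 ± 130 CPM in ZM and 549 ± 26.3 CPM in Ctrl cells and was not called (adjusted p = 0.327). Cebpa was highest in ZM replicate 3, at 101.8 CPM, and its ZM and Ctrl libraries did not overlap.

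Among 5 genes for shedding of receptor and ligand, 4 were tested and Rhbdf2, a partner of the shedding enzyme Adam17, rose to 69.5 ± 9.86 CPM in ZM cells, against 45.2 ± 3.33 CPM in Ctrl cells (adjusted p = 0.0265). Of the other class III receptor tyrosine kinases, relatives of Csf1r, 3 of 4 were tested and Kit fell to 0.752 ± 0.405 CPM in ZM cells, against 2.80 ± 0.632 CPM in Ctrl cells (adjusted p = 0.0366). Across all these pathway lists 26 of 76 genes tested were called, against a background of 11.0% of all genes tested. Of these calls 2, Csf3 and Cblb, held without each single library in turn. The refits without a Ctrl library called 0.921% to 1.40% of all genes tested.

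**Figure D5:**
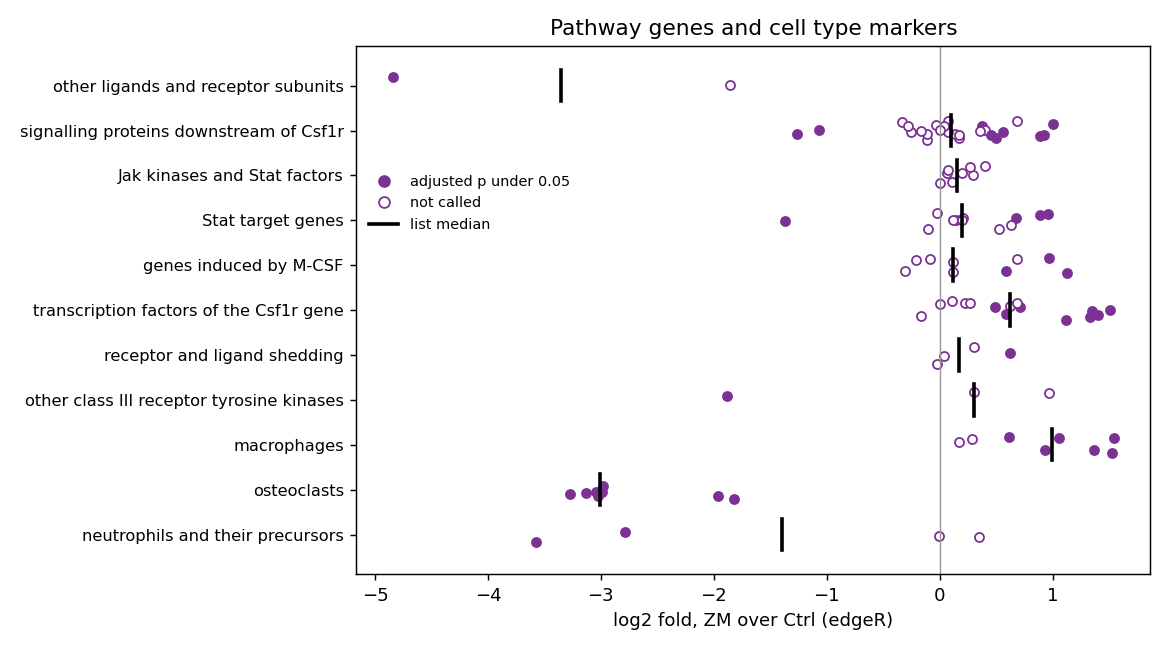
Log2 fold of ZM over Ctrl (x axis) for every tested gene of each pathway list and of the macrophage, osteoclast and neutrophil marker lists (y axis, points spread to show overlaps); filled points had an adjusted p under 0.05, open ones did not, and the black bar is the list's median. The median lies at 0.62 for the transcription factors of the Csf1r gene and at 0.10 for the signalling proteins downstream of Csf1r.

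The genes whose profile over the 6 libraries lay nearest to that of a member were found by the root mean square difference of centred log2 CPM, among 8805 genes of at least 10 CPM. Csf3r had Clec4n (0.0817), C1qa (0.0970) and Selenop (0.102) as its nearest, a wider gap than for any other member. For Csf1r they were Os9 (0.0191), Sirt2 (0.0236) and Nucb1 (0.0264), for Csf2ra Dennd1a (0.0258), Adamts10 (0.0284) and Stk40 (0.0304), and for Il3ra Pld4 (0.0450), Dhrs3 (0.0480) and Smim14 (0.0540). The nearest gene was Lhfpl2 (0.0257) for Csf1, Ppm1h (0.0221) for Csf2rb and Tbc1d4 (0.0390) for Csf2rb2. With a limit of 1 CPM, 19 of the 21 nearest genes stayed the same.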

How the data were processed

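The deposited table held, for each gene and library, raw whole-number counts and FPKM values. The submitters' processing notes name mm10, DESeq2, Subread, featureCounts 2.0.3 and HISAT2 2.2.1, without their roles. The annotation and the strand setting are not given in the sources used here. Of all counts from 1 to 20, 72.7% to 76.4% were even in each library, as when both mates of a pair are counted, so fragments are fewer than counts. FPKM, as deposited, is the count scaled to each gene's length and each column's sum. Their lengths equal the merged exons of GENCODE M21 for all 7 members.

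Genes were filtered by filterByExpr and tested on counts in edgeR 4.0.16 (TMM, quasi-likelihood F test, group only, Benjamini-Hochberg over 15590 genes, threshold 0.05, R 4.3.3), after a test on simulated data. SE is the size of the log2 fold divided by the square root of F. Alternatives used DESeq2 1.42.0, limma 3.58.1 (voom), other scalings and filters, left-out libraries and a replicate block. The ratio of Csf1 to Csf1r and the share of Csf2rb2 used an exact permutation test, and other ratios of members were not tested. Named genes are all 7 members, their other ligands and receptor subunits, up to 4 called genes of each pathway list by adjusted p, the 3 nearest genes of each member, the most abundant marker of each cell type list and genes whose exons overlap a member's. Jak2, Spi1, the other neutrophil markers and the names of the other risen transcription factors were added after their values were seen. Some genes the rule names are not reported here. Members and lists were chosen with earlier results of these data known.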

Additional observations from a re-analysis of the deposited data

How the results depend on the processing

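Over 103 refits of the members' folds, 75 stayed on the same side of the threshold, 20 lost a call, 8 gained one and 0 changed sign. The number of members called, 5 with all libraries, ranged from 0 to 7 when single libraries were left out, and the number of genes called, 1711 with all libraries, from 148 to 5023. DESeq2 called 3295 genes, 21.1% of those tested and among them all 1711, and 7 members. The replicate numbers were not taken to pair the libraries, since the labels do not tie them and deviations of same-numbered libraries correlated at only 0.031, 0.047 and 0.11. Ctrl replicates 2 and 3 did correlate best with the ZM library of their own number, a hint from the data, and Ctrl replicate 1 with ZM replicate 2. With the replicate block 1679 genes and 4 members were called. Groups of 3 libraries limit every p here. Left-out refits with 2 libraries in a group take their spread from both groups together.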

Other observations

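Single genes of other cell type lists also moved, where 11.0% of all genes tested were called. Itgax, an integrin of dendritic cells and macrophages, rose to 81.7 ± 0.885 CPM in ZM cells, against 61.2 ± 0.380 CPM in Ctrl cells (edgeR, adjusted p = 0.0214), and of the 6 dendritic cell genes tested 1 rose and 1 fell. Pf4, a platelet chemokine, rose to 24.2 ± 11.0 CPM in ZM cells, against 6.70 ± 1.70 CPM in Ctrl cells (adjusted p = 0.0179), with 1 of 4 erythroid and megakaryocyte genes tested risen and 1 fallen. Vwf, an adhesive protein of endothelial cells, fell to 31.6 ± 2.95 CPM in ZM cells, against 48.4 ± 2.90 CPM in Ctrl cells (adjusted p = 0.0166), and of 5 endothelial genes tested 2 fell. Of 4 stromal and osteoblast lineage genes tested 0 were called, with Cxcl12, a stromal chemokine, at 1.79 ± 0.427 CPM in ZM and 1.35 ± 0.228 CPM in Ctrl cells (adjusted p = 0.320).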
